A study of Mus musculus with 24 samples.

Results

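The Nodal signalling pathway was followed here through 9 genes across a mouse neural differentiation course in wild-type (WT) cells and cells lacking SmcHD1. The members were taken by name: the ligands Nodal, Gdf3 and Gdf1, the co-receptor Tdgf1, the receptor Acvr2b, the transcription factor Foxh1, the secreted antagonists Lefty1 and Lefty2 and the proprotein convertase Furin. Each name matched a single entry, so the 9 members were 9 of 23119 listed genes, and all 9 were among the 12105 genes tested. The names were set with earlier results of these data known.

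Polyadenylated RNA was sequenced from 24 libraries in 8 groups of 3, which were WT and SmcHD1 KO cells at 4 stages. All were female JB4/EI7HZ2 cells, an F1-hybrid embryonic stem cell line from a JF1 mother and a B6 father, with drug-resistance genes on both X chromosomes and G418 and Zeocin in the mESC and NSC media to keep both X chromosomes. The KO line was 1 mutant line made from it by CRISPR-Cas9 editing of Smchd1, which encodes a chromatin protein of the SMC family, so genotype and line cannot be told apart. The mESC groups were grown with serum, leukaemia inhibitory factor and inhibitors of MEK and GSK3 (2i/LIF). The day 7 and day 9 groups were aggregates driven to early neurectoderm after an epiblast-like step in Activin A and bFGF, so all 4 of these groups had received an agent that signals through the same receptors and SMADs as Nodal. The NSC groups were neural stem cell cultures in FGF2 and EGF. Levels are in FPKM (fragments mapped to a gene, scaled by its transcript length and by the library's mapped fragments), which allows comparison between genes per length, and differences are on the log2(FPKM + 1) scale from limma with Benjamini-Hochberg adjustment over all tested genes. Genes with an adjusted p under 0.05 are named as called.

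Nodal is a TGF-beta family ligand that binds type I and type II activin receptors together with an EGF-CFC co-receptor, and the receptors phosphorylate SMAD2 and SMAD3. These enter the nucleus with SMAD4 and act through partners such as FOXH1 on enhancers of Nodal itself and of Lefty1 and Lefty2, so the ligand and its own inhibitors are both targets of the signal. In the mouse epiblast the pathway helps to keep pluripotency and then patterns the primitive streak, mesoderm and endoderm, and its inhibition favours neurectoderm.

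Because this feedback runs through FOXH1, the DNA around the ligand and both antagonists is shown with each match to the core word AATCCACA of the FOXH1 motif, searched on both strands from 10000 bases before to 5000 bases after the annotated start of each of the 9 genes (mm9 genome, GENCODE annotation). Nodal, on chromosome 10, held 2 matches, 1327 and 2121 bases after its start, both in its intron 1. Lefty2 held 2 matches upstream of its start, 83 bases apart, and Lefty1 held 1 match upstream. These 3 genes carry the feedback, and their matches are printed on the plus strand, which is also the coding strand of each gene, with the motif in capitals:
Nodal, first match, chr10:60882021-60882080: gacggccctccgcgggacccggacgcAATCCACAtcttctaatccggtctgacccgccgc
Nodal, next match, chr10:60882815-60882874: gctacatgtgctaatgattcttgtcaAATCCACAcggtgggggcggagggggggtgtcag
Lefty2, both matches, chr1:182818998-182819140: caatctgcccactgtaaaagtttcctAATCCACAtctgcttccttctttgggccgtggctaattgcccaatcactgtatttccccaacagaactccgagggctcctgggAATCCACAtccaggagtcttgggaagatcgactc
Lefty1, chr1:182859797-182859856: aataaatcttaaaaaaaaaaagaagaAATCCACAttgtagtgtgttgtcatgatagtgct
Foxh1 itself held 3 matches and Furin held 1, and no match was found in the windows of Tdgf1, Gdf3, Gdf1 and Acvr2b. Across 11595 tested protein-coding genes with a window of the same length, 44.2% held at least 1 match, 11.7% at least 2 and 2.5% at least 3. A match is a description of the letters and not a bound site. RefSeq promoters of 300 bases (GRCm38.p6) were given for 5 of the 9 genes (Nodal, Tdgf1, Gdf1, Acvr2b and Furin), and none of them held the word, which 0.86% of all 32851 promoters did.

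**Figure D1:**
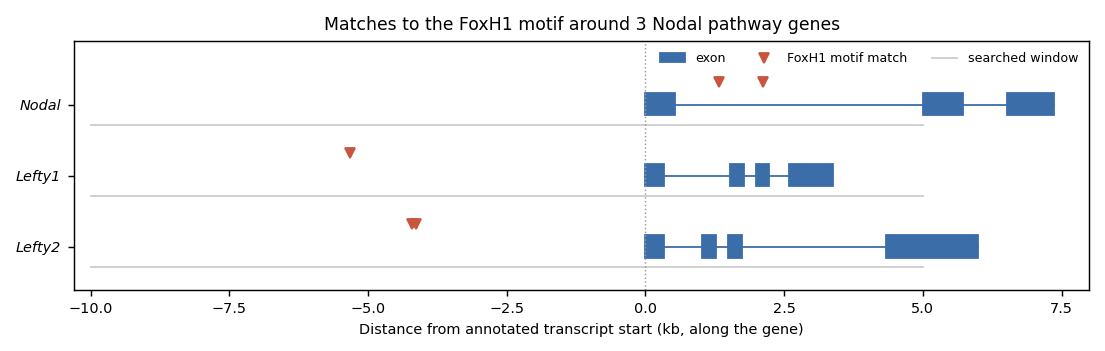
Position of matches to AATCCACA (triangles) along Nodal, Lefty1 and Lefty2, with distance in kb from the annotated transcript start on the x axis, exons as blocks and the searched window as a grey line. Nodal carries 2 matches within intron 1, whereas the matches of Lefty1 and Lefty2 lie 5330, 4215 and 4132 bases before the start.

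Lefty1 and Lefty2 are neighbours on chromosome 1, with 35918 bases between the end of Lefty2 and the start of Lefty1. Of the 80-base words in their annotated coding transcripts (the read length), 9.9% of those of Lefty1 also occurred in Lefty2 and 6.4% of those of Lefty2 in Lefty1, so a small part of the reads of each cannot be placed. Gdf1 lies on chromosome 8 from 72853664 to 72855486, within the transcription unit of Lass1, and all of its words were shared with an annotated Lass1 transcript. The deposited entry named Gdf1 spans 72839673 to 72877172, well beyond these bounds. Its values therefore cannot be assigned to Gdf1 alone, and they are uncertain. The other 6 members shared no 80-base word with another gene.

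The deposited values checked the genotype labels and the stages. Smchd1 was lower in KO than in WT cells at all 4 stages, with log2 differences of -2.41 to -1.96 (every adjusted p at or under 2.81e-09). The summed level of 4 pluripotency markers (Pou5f1, Nanog, Fgf4 and Zfp42) was 2159 to 2625 FPKM in mESCs, 263 to 401 at day 7, 50.8 to 111 at day 9 and at most 1.26 in NSCs, and the summed NSC markers (Nes, Olig2, Fabp7 and Vim) reached 3699 to 6685 FPKM in NSCs. The libraries were of similar depth, with 1.42-fold between the deepest and the shallowest as estimated from the step that 1 read makes in low values. WT day 7 replicate 1 stood apart from its group, with a summed level of 5 primitive streak and mesoderm markers of 62.6 FPKM against 156 and 160 in the other WT libraries.

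All 9 members differed between WT mESCs and WT NSCs, and for Nodal, Tdgf1, Gdf3 and Lefty2 the libraries of each stage lay below all those of the stage before. Between WT mESCs and WT day 7, 3 members rose, 5 fell and Lefty1 was not called, where 59.2% of all tested genes were called. At WT day 9, 2 were higher and 7 lower than in mESCs (71.5% of all genes called), and in WT NSCs 1 was higher and 8 lower (75.2%). In the KO course 3 members were higher and 6 lower than in mESCs at day 7 (61.3% of all genes called). KO day 9 gave 2 higher and 7 lower (71.3%), whereas KO NSCs gave 1 higher and 8 lower (76.0%). In the KO course the rise of Gdf1 at day 9 (0.73, adjusted p = 0.0298) was not called without KO mESC replicate 2, KO day 9 replicate 1 or KO day 9 replicate 2 (0.56 to 0.74, adjusted p = 0.0547 to 0.130). With most of the transcriptome called, these counts describe the course and do not set the pathway apart. In these bulk samples, fewer cells of a type and less RNA per cell cannot be told apart.

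**Figure D2:**
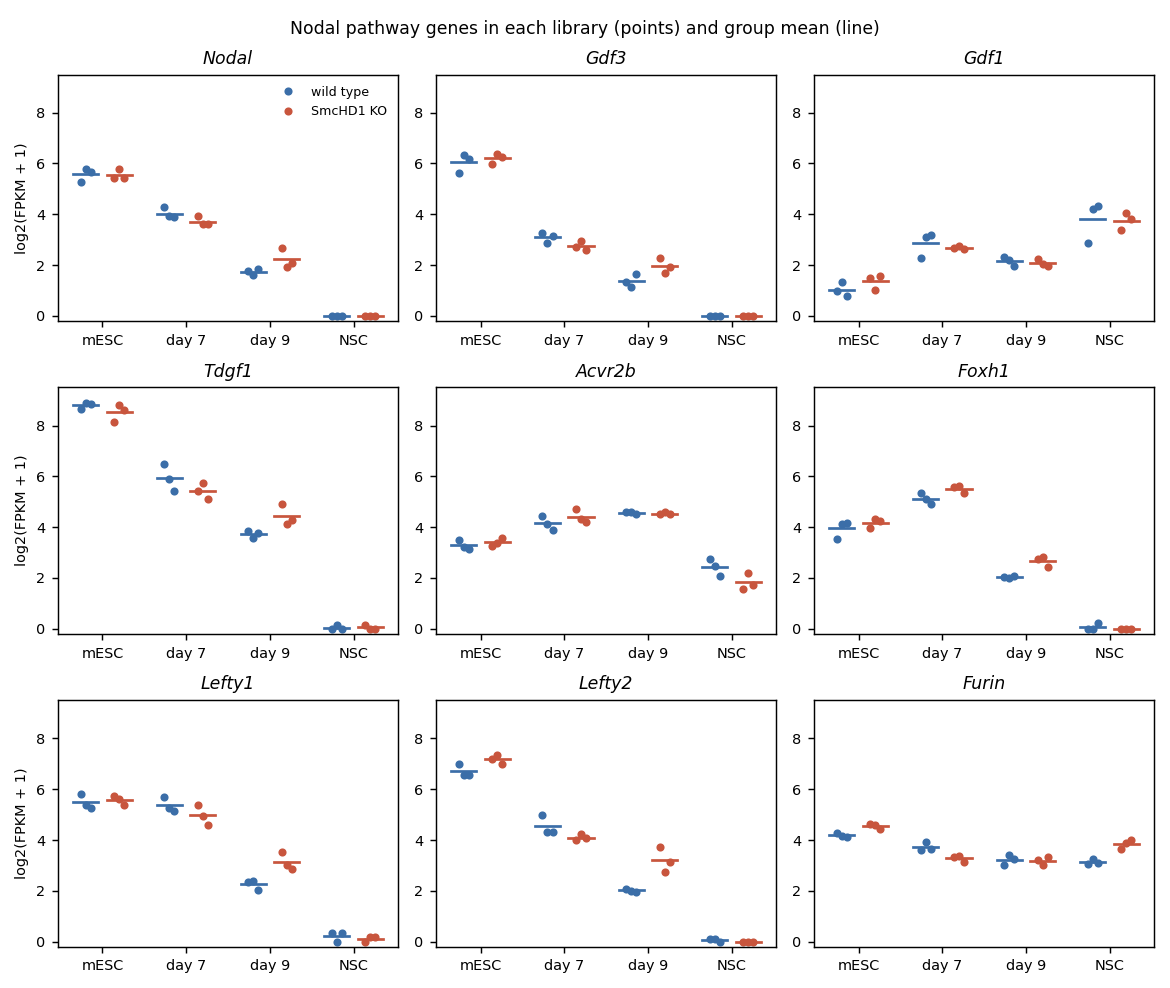
Level of the 9 genes, as log2(FPKM + 1), in each of the 24 libraries (points, 3 per group) with the group mean (line), by stage and genotype. Nodal, Gdf3, Tdgf1, Lefty2 and Lefty1 fall to at or near 0 in NSCs, Foxh1 is highest at day 7, Acvr2b is highest at days 7 and 9, and the entry named Gdf1, which spans more than that gene, is highest in NSCs.

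The ligand Nodal was expressed at 37.7, 54.3 and 49.7 FPKM in the 3 WT mESC libraries and at 42.4, 54.0 and 42.6 FPKM in the KO mESC libraries. By day 7 it stood at 18.4, 14.2 and 13.8 FPKM in WT and at 14.1, 11.2 and 11.3 FPKM in KO cells, and by day 9 at 2.44, 2.04 and 2.55 FPKM in WT and 5.31, 2.78 and 3.29 FPKM in KO cells. It was listed at 0 in all 6 NSC libraries. In WT cells the mean was thus 3.05-fold lower at day 7 and 20.2-fold lower at day 9 than in mESCs (log2 differences of -1.54, SE 0.17, adjusted p = 8.17e-08, and -3.84, SE 0.17, adjusted p = 1.44e-14). In the order of group means, WT and KO overlapped in mESCs and at day 7, whereas the libraries of every stage lay apart from those of the next.

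Gdf3, a related ligand that can pair with Nodal and that modulates BMP signals, had the larger fold differences from mESCs. Its WT mean went from 66.8 ± 16.8 FPKM (SD, n = 3) in mESCs to 7.69 ± 1.20 at day 7 and 1.63 ± 0.486 at day 9, which was 8.68-fold and 41.1-fold lower than in mESCs. The KO means were 72.9 ± 10.9, 5.71 ± 0.847 and 2.94 ± 0.841 FPKM, and Gdf3 was listed at 0 in all 6 NSC libraries. Within each library the ratio of Gdf3 to Nodal was 1.27 to 1.75 in the 6 mESC libraries, 0.388 to 0.593 at day 7 and 0.586 to 0.845 at day 9, so Gdf3 exceeded Nodal per length in mESCs and fell below it in every differentiating library.

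The entry named Gdf1, a gene whose product forms heterodimers with Nodal, ran the other way. It was at 0.707 to 1.95 FPKM over the 6 mESC libraries, 3.91 to 8.01 at day 7, 2.91 to 3.97 at day 9 and 6.34 to 19.2 in NSCs. The WT NSC libraries were at 6.34, 17.5 and 19.2 FPKM, and the KO NSC libraries at 9.51, 15.6 and 13.0. The rise from WT mESCs to WT NSCs was 2.77 on the log2 scale (SE 0.29, adjusted p = 1.82e-08), and the shared Lass1 transcript named above limits what it says about Gdf1.

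The co-receptor Tdgf1 (Cripto), a membrane-anchored EGF-CFC protein that Nodal needs to engage its receptors, was the most abundant member in mESCs, at 403, 478 and 465 FPKM in WT and 284, 451 and 390 FPKM in KO libraries. It made up 59.4% of the summed FPKM of the 9 genes in WT mESCs on average. Levels at day 7 were 88.6, 59.1 and 42.4 FPKM in WT and 41.9, 52.9 and 33.8 FPKM in KO cells, and at day 9 they were 13.4, 10.8 and 12.7 FPKM in WT and 29.0, 16.4 and 18.2 FPKM in KO cells. The fall was 36.5-fold in WT and 17.7-fold in KO cells by day 9. In NSCs Tdgf1 was at 0 in 4 of 6 libraries and at 0.104 and 0.121 FPKM in the others.

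Acvr2b, a type II activin receptor, did not follow the ligand. Its mean went up from 8.84 ± 1.24 FPKM in WT mESCs to 17.1 ± 3.58 at day 7 and 22.8 ± 0.702 at day 9, then dropped to 4.47 ± 1.26 in NSCs (SD, n = 3 each). The KO means were 9.65, 20.6, 22.2 and 2.62 FPKM at the same stages. At day 9, when Nodal was at its lowest before NSCs, Acvr2b held the largest mean share of the summed FPKM of the 9 genes in both genotypes, 37.5% in WT and 27.2% in KO cells.

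Foxh1, the DNA-binding partner of SMAD2 and SMAD3, peaked at day 7. Its libraries were at 10.7 to 18.8 FPKM in mESCs, at 39.4, 33.8 and 28.7 FPKM in WT day 7, at 46.3, 48.6 and 39.6 FPKM in KO day 7, and at 2.96 to 6.11 FPKM at day 9. The WT mean rose 2.30-fold from mESCs to day 7 (log2 difference 1.17, SE 0.16, adjusted p = 1.54e-06), while that of Nodal fell. In NSCs it was at 0.176 FPKM in 1 WT library and at 0 in the other 5.

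The antagonists, which block Nodal and its co-receptor outside the cell, fell out of step with one another. Lefty2 was at 127, 94.3 and 93.3 FPKM in WT mESCs and had fallen to 31.0, 19.1 and 19.0 FPKM by day 7. Lefty1 was at 55.3, 41.1 and 37.5 FPKM in WT mESCs and still at 50.5, 37.7 and 34.6 FPKM at day 7, a log2 difference of -0.12 (95% interval -0.54 to 0.30, adjusted p = 0.635). Lefty2 thus changed by -2.16 (SE 0.19, adjusted p = 3.68e-09) over a step in which Lefty1 in WT cells was not called. In KO cells Lefty1 did fall, by 0.60 on the log2 scale (SE 0.20, adjusted p = 0.0142), from 52.7, 47.5 and 40.5 to 40.7, 29.7 and 23.4 FPKM, with the top day 7 library just above the bottom mESC library. That call was lost without KO mESC replicate 1 (-0.51, adjusted p = 0.0608), without KO day 7 replicate 3 (-0.41, adjusted p = 0.106), with a pseudocount of 0.1 (-0.61, adjusted p = 0.182) and when libraries were scaled to the same sum (-0.38, adjusted p = 0.135). The step itself was not called as different between KO and WT cells in limma (-0.48, 95% interval -1.07 to 0.12, adjusted p = 0.686).

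The ratio of Lefty2 to Lefty1 within a library does not depend on scaling between libraries. It was 2.30 to 3.43 in the 6 mESC libraries, 0.364 to 0.676 in the 6 day 7 libraries and 0.712 to 1.25 in the 6 day 9 libraries, so Lefty2 was the more abundant antagonist in every mESC library and Lefty1 in every day 7 library. Lefty1 over Nodal was between 0.755 and 1.47 in the mESC libraries and between 2.07 and 2.88 at day 7, so no mESC library overlapped a day 7 library. Lefty2 over Nodal at day 9 was 1.15 to 1.48 in WT and 2.04 to 2.38 in KO libraries, without overlap, and Lefty2 over Lefty1 in mESCs was 2.30 to 2.48 in WT and 2.73 to 3.43 in KO libraries, also without overlap. An exact two-sided permutation test gave p = 0.1 for each, the smallest that 3 against 3 libraries allow, and 0.50 after adjustment over 15 ratio tests between KO and WT.

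**Figure D3:**
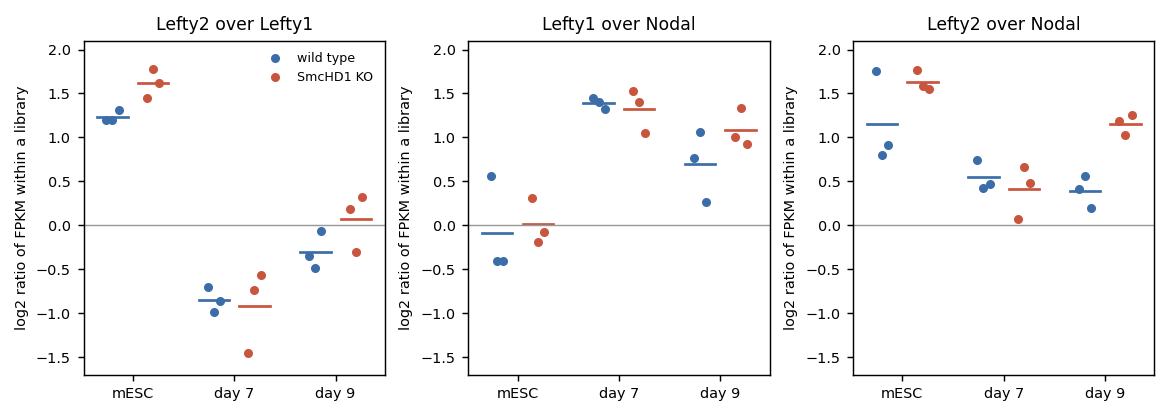
Log2 ratio of FPKM within each library (points, 3 per group) and its group mean (line) for 3 gene pairs at 3 stages, with 0 marking equal levels. Lefty2 over Lefty1 lies above 0 in all mESC libraries and below 0 in all day 7 libraries, and at day 9 the KO libraries lie above the WT libraries for Lefty2 over Nodal.

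Furin, a convertase that cleaves the Nodal precursor, stayed on throughout. Its means were 17.2 ± 0.944, 12.3 ± 1.51, 8.37 ± 1.19 and 7.82 ± 0.719 FPKM in WT mESCs, day 7, day 9 and NSCs (SD, n = 3 each), and 22.5 ± 1.83, 8.77 ± 0.926, 8.18 ± 1.01 and 13.4 ± 1.82 FPKM in KO cells. Its call between WT mESCs and WT day 7 (-0.46, adjusted p = 0.00335) was lost when every library was scaled to the same summed FPKM (-0.24, adjusted p = 0.200), as was its call between KO mESCs and KO NSCs (-0.71 in the fit as deposited, -0.22 and adjusted p = 0.213 after scaling). That scaling moved the median of all genes by 0.19 to 0.37 on the log2 scale in the WT comparisons with mESCs and by 0.18 to 0.44 in those of KO cells.

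The comparison of KO with WT at each stage asked whether loss of SmcHD1 went with another level of the pathway genes. In mESCs no member was called by limma (2 had an unadjusted p under 0.05), with 0.116% of all tested genes called higher and 0.413% called lower, and all KO libraries lay above all WT libraries for 1 of 9 members (Furin) and below for none, where 5.07% and 5.93% of all tested genes did so. Furin stood at 22.5 ± 1.83 FPKM in KO and 17.2 ± 0.944 FPKM in WT mESCs (SD, n = 3 each, log2 difference 0.37, 95% interval 0.10 to 0.63, adjusted p = 0.329). Nodal differed by -0.02 (95% interval -0.37 to 0.33), Lefty1 by 0.08 (-0.34 to 0.50) and Lefty2 by 0.46 (0.06 to 0.86, adjusted p = 0.547).

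At day 7 again no member was called by limma, with 4 at an unadjusted p under 0.05 (1.18% of all genes higher, 2.50% lower), although 8 other genes of the pathway were. The difference was below 0 for 7 of the 9 members, with a median of -0.37 against 0.00 for all tested genes. Lefty2 was at 14.8, 17.9 and 15.8 FPKM in KO libraries, all below the WT libraries given above, a log2 difference of -0.45 (95% interval -0.86 to -0.05, adjusted p = 0.271). Furin was at 9.13, 9.47 and 7.72 FPKM in KO and 11.3, 14.0 and 11.4 FPKM in WT cells, also without overlap (-0.44, 95% interval -0.70 to -0.18, adjusted p = 0.0572). Foxh1 was the member for which all KO libraries lay above all WT libraries (0.40, 95% interval 0.07 to 0.72, adjusted p = 0.218). Separation of this kind was thus seen upward in 1 member and downward in 2, where 11.6% and 12.3% of all genes showed it.

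At day 9 the antagonists and Foxh1 were higher in KO than in WT cells. Lefty2 was at 3.26, 3.03 and 2.92 FPKM in WT and 12.1, 5.67 and 7.83 FPKM in KO libraries. The KO mean was 2.78-fold the WT mean, and the log2 difference was 1.17 (SE 0.19, 95% interval 0.77 to 1.57, adjusted p = 3.41e-04). All KO libraries were above all WT libraries, and replicate 1 was the highest of them. Lefty1 was at 4.15, 4.25 and 3.06 FPKM in WT and 10.6, 7.01 and 6.24 FPKM in KO libraries, 2.08-fold by means (log2 difference 0.87, SE 0.20, adjusted p = 0.00861). Foxh1 was at 3.07, 2.96 and 3.19 FPKM in WT and 5.71, 6.11 and 4.44 FPKM in KO libraries, 1.76-fold by means (log2 difference 0.65, SE 0.16, adjusted p = 0.0121). These 3 of 9 members were called higher and none lower, where 2.58% of all tested genes were called higher and 4.11% lower.

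The ligands Nodal and Gdf3 and the co-receptor Tdgf1 lay in the same direction at day 9 without passing the test. Nodal differed by 0.49 (95% interval 0.14 to 0.84, adjusted p = 0.0983), Gdf3 by 0.58 (0.20 to 0.96, adjusted p = 0.0651) and Tdgf1 by 0.70 (0.24 to 1.17, adjusted p = 0.0639), and in each the 3 KO libraries were above the 3 WT libraries. They were called in the limma fit that blocked on replicate number (adjusted p = 0.0258, 0.0280 and 0.0125). Replicate numbers did not pair the libraries at day 9, however. In all, 6 of 9 members were separated upward and none downward, where 15.4% and 16.8% of all tested genes were. Gdf1, Acvr2b and Furin overlapped between genotypes, at differences of -0.08, -0.04 and -0.03 with 95% intervals of -0.68 to 0.53, -0.41 to 0.34 and -0.29 to 0.23.

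KO day 9 replicate 1 held the highest level of Nodal, Lefty1, Lefty2, Tdgf1 and Gdf3 among the day 9 libraries. Without it, 1 of 9 members (Lefty2) was called at day 9, and without KO day 9 replicate 2 there were 5, with Foxh1 lost and Nodal, Tdgf1 and Gdf3 gained. The Lefty1 call was also lost without WT day 9 replicate 3 (0.75, adjusted p = 0.0651) and that of Foxh1 without WT day 9 replicate 2 (0.63, adjusted p = 0.0569). With a pseudocount of 0.1 both were lost (Lefty1 1.02, adjusted p = 0.179, and Foxh1 0.79, adjusted p = 0.131) and Gdf3 was gained (0.82, adjusted p = 0.0489). KO day 9 replicate 2 stood apart in markers of other lineages, with T at 12.2 FPKM and Foxa2 at 11.0 FPKM, where the other KO libraries had 3.80 and 2.42 FPKM of T and 2.42 and 2.22 FPKM of Foxa2. Lefty2 was called in every alternative run, at 0.92 to 1.40 when single libraries were left out. The same replicate 1 had the highest Pou5f1 and Nanog of day 9, at 65.2 and 37.0 FPKM, where the other KO libraries had 39.8 and 55.5 FPKM of Pou5f1 and 21.1 and 27.5 of Nanog, and the WT libraries had 31.5 to 47.9 of Pou5f1 and 15.1 to 22.8 of Nanog. The 4 pluripotency markers summed to 66.8 to 111 FPKM in KO and 50.8 to 77.6 FPKM in WT day 9 libraries, their median difference was 0.40, and 0 of 4 were called. Their part in the differences of the pathway genes was not tested. Of 3 markers of early neurectoderm, the cell type the protocol aims for (Sox1, Pax6 and Hes5), Sox1 and Pax6 were also called higher in KO cells at day 9, and the summed level was 153 to 192 FPKM in KO and 99.9 to 168 in WT libraries. Of the 4 NSC markers, Olig2 was called lower at day 9 (-1.29, adjusted p = 0.0127) and none higher, while their sum, mostly Vim and Fabp7, was 1477 to 1702 FPKM in KO and 1242 to 1527 in WT libraries. The 5 listed streak and mesoderm genes summed to 5.64 to 17.4 FPKM in KO and 16.4 to 44.2 in WT day 9 libraries, and the 5 listed endoderm genes to 6.22 to 29.9 and 53.7 to 101. The streak and mesoderm sum was mostly T and Meox1. Means went the other way for Eomes (1.99 FPKM in KO against 1.21 in WT) and the untested Tbx6 (1.37 against 1.28) and Mixl1 (0.176 against 0).

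**Figure D4:**
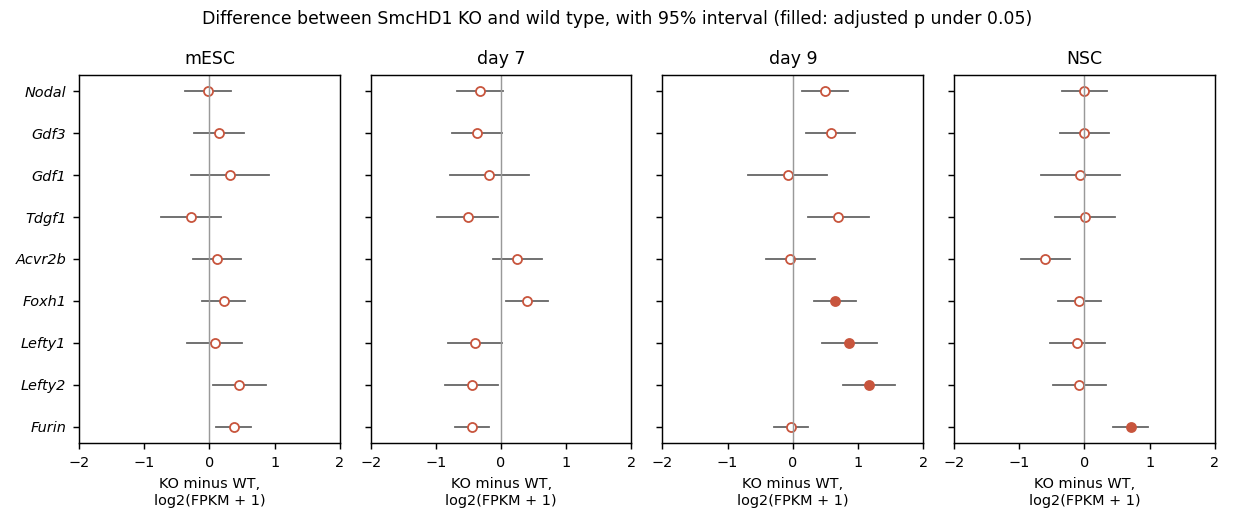
Difference between KO and WT, on the log2(FPKM + 1) scale, for the 9 genes at each stage, with 95% intervals from the limma fit (3 libraries per group) and filled points where the adjusted p was under 0.05. Filled points are Lefty1, Lefty2 and Foxh1 at day 9 and Furin in NSCs.

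The KO effect at day 9 was compared with that at day 7, where no member was called, in a contrast chosen after the data had been seen. It was called for 3 of 9 members, where 1.83% of all genes were called. It was 1.63 for Lefty2 (SE 0.27, adjusted p = 0.00145), 1.27 for Lefty1 (SE 0.29, adjusted p = 0.0182) and 1.22 for Tdgf1 (SE 0.31, adjusted p = 0.0486). The call of Tdgf1 was lost in 9 of the 12 fits that left out 1 library of these stages, and that of Lefty1 in 4 of the 12 (1.07 to 1.15, adjusted p = 0.0574 to 0.0755), and both were lost with a pseudocount of 0.1 and in a fit of these groups alone. The call of Tdgf1 was also lost with no filter on low values (1.22, adjusted p = 0.0506) and with libraries scaled to the same sum (1.14, adjusted p = 0.0929). Nodal, at 0.80 (95% interval 0.31 to 1.30, adjusted p = 0.109), was not called. Against mESCs, limma called the KO effect at day 9 for 0 of 9 members (5 at an unadjusted p under 0.05, 2.68% of all genes called) and that in NSCs for 0 of 9 (1 at an unadjusted p under 0.05, 2.26% of all genes called). The KO effect at day 7 differed from that in mESCs in 1 of 9, Furin, by -0.81 (SE 0.18, adjusted p = 0.0194, 1.68% of all genes called). That call was lost without WT mESC replicate 3, KO mESC replicate 1, WT day 7 replicate 2 or KO day 7 replicate 3, at -0.78 to -0.71 and adjusted p values of 0.0544 to 0.0763, and under scaling to the same sum (-0.81, adjusted p = 0.0730). Between day 9 and day 7, 1 of 9 members was called without WT day 7 replicate 1, which stood apart in its markers, and likewise without KO day 7 replicate 3 or KO day 9 replicate 1, while 5 were called without KO day 9 replicate 2.

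In NSCs, where the ligand was at 0, the convertase Furin was the member that differed between genotypes by the test. Furin was at 7.33, 8.65 and 7.49 FPKM in WT and 11.5, 13.6 and 15.1 FPKM in KO NSCs, without overlap and 1.72-fold by means (log2 difference 0.71, SE 0.13, adjusted p = 0.00122). It was the 1 of 9 members called higher, with none called lower (2.54% and 3.48% of all genes), and the 1 of 9 separated upward, with none downward (8.16% and 8.54%). Some cell type markers also differed here, with the 4 NSC markers at summed levels of 3699 to 4580 FPKM in KO and 5204 to 6685 in WT libraries and Vim called lower (-0.55, adjusted p = 0.0415), and with the 5 listed endoderm genes at 1.59 to 4.00 against 0 to 0.0597 FPKM. Vim was the 1 of 4 NSC markers called. Their sum was mostly Fabp7 (means of 2800 FPKM in KO and 3862 in WT, not called), and Olig2 went the other way (361 against 338). The endoderm sum was mostly Foxa2 and Gata4. The part of these markers in the difference of Furin was not tested. In a fit of the NSC libraries alone the adjusted p of Furin was 0.119. Acvr2b was at 5.70, 4.53 and 3.18 FPKM in WT and 1.95, 3.62 and 2.27 FPKM in KO NSCs (-0.60, 95% interval -0.97 to -0.22, adjusted p = 0.0533), and it did not pass the test. It was called in the fit that blocked on replicate number, which paired the libraries here (adjusted p = 0.0305), and with a pseudocount of 0.1 (-0.76, adjusted p = 0.0352). It was also called without WT NSC replicate 3 (-0.78, adjusted p = 0.0176) and without KO NSC replicate 2 (-0.79, adjusted p = 0.0158). It was not called in the other left-out fits (adjusted p up to 0.205), after scaling to the same sum (-0.57, adjusted p = 0.0911) or in a fit of the NSC libraries alone (adjusted p = 0.419).

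The rest of the pathway was read from a list of 30 other genes, of which 27 passed the filter on low values. In mESCs none of the 27 was called by limma between KO and WT (3 at an unadjusted p under 0.05). At day 7, 8 were called lower and none higher (2.50% and 1.18% of all tested genes), with a median of -0.26 over the list, and 8 or 9 were called lower when any 1 day 7 library was left out. Cer1, Cfc1 and Sox17, among these 8, passed the filter on low values only through WT day 7, where they were high. Their calls at day 7 were thus favoured by that filter and add no support to the count. Of 8 tested genes known as Nodal targets in streak and endoderm, 6 were called lower in KO than in WT cells at day 7. From mESCs to day 7 all 8 were called higher in WT cells (59.2% of all genes called in either direction), and in KO cells 2 were called higher and 3 lower (61.3%). T (Brachyury), a streak and mesoderm factor, was at 52.1, 132 and 124 FPKM in WT and 0.719, 2.03 and 2.03 FPKM in KO libraries (-5.26, SE 0.44, adjusted p = 2.92e-07). Foxa2, an endoderm and node factor, was at 15.1, 37.8 and 35.9 FPKM in WT and 0.344, 1.40 and 0.431 FPKM in KO libraries (-4.09, SE 0.40, adjusted p = 1.39e-06).

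The 8 lower genes also held regulators of the signal. Cer1, a secreted antagonist of Nodal that marks anterior endoderm, was at 40.9, 101 and 66.2 FPKM in WT and 0.215, 3.10 and 2.29 FPKM in KO libraries (-4.70, SE 0.33, adjusted p = 1.27e-08). Cfc1 (Cryptic), the other EGF-CFC co-receptor, was at 7.13, 14.5 and 14.6 FPKM in WT and 0.991, 0.746 and 0.248 FPKM in KO libraries (-2.94, SE 0.22, adjusted p = 2.15e-08). Gsc, Eomes, Lhx1 and Sox17 made up the rest. Cer1, Cfc1 and Sox17 had means of 69.4, 12.1 and 6.33 FPKM in WT day 7. Outside that group no mean was above 2.79, 0.662 and 1.38 FPKM in the same order. Tdgf1, the co-receptor of the epiblast, differed by -0.51 (95% interval -0.98 to -0.05, adjusted p = 0.283).

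The markers of other lineages moved with this result. All 3 tested primitive streak and mesoderm markers and all 3 tested endoderm markers were called lower in KO cells at day 7, and the summed levels were 62.6 to 160 FPKM in WT against 3.33 to 5.20 in KO for the 5 listed streak and mesoderm genes and 32.1 to 244 against 0.496 to 2.39 for the 5 listed endoderm genes. T, Eomes, Foxa2, Sox17 and the untested Mixl1 belong both to these markers and to the target list, and Sox17 passed the filter only through WT day 7. The early neurectoderm markers summed to 112 to 126 FPKM in KO and 60.3 to 84.3 in WT cells, with Sox1 called higher (0.72, adjusted p = 0.0336), and 2 of 4 NSC markers, Olig2 and Vim, were called lower (-1.39, adjusted p = 0.0106, and -0.71, adjusted p = 0.00946). None of the 4 pluripotency markers was called at day 7, and their sums overlapped, at 263 to 401 FPKM in WT and 267 to 400 in KO cells. Those sums are mostly Pou5f1 and Nanog, and for Zfp42 (-0.52, adjusted p = 0.117) and Fgf4 (-0.32, adjusted p = 0.296) all KO libraries lay below all WT libraries. The part of these lineages in the pathway result was not tested.

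At day 9, T and Foxa2 were still called lower in KO cells (-1.80, adjusted p = 0.0157, and -2.85, adjusted p = 7.10e-05), and Fst, which encodes the activin-binding antagonist follistatin, was called higher. Fst was at 18.0, 16.0 and 15.3 FPKM in KO and 7.14, 6.57 and 7.27 FPKM in WT libraries (1.12, SE 0.25, adjusted p = 0.00558). The difference between the day 9 and the day 7 KO effect was called higher in 9 of 27 listed genes and lower in none, where 1.83% of all tested genes were called in either direction. This contrast was chosen after the data had been seen, and it subtracts the day 7 effect. Genes called lower at day 7 are thus pushed upward in it, so the count is not a separate day 9 result. The day 9 call of T was lost without WT day 9 replicate 2 or 3 or KO day 9 replicate 1 or 3. Smad2, Smad3 and Smad4, which encode the carriers of the signal, were not called at any stage, with Smad3 at day 9 nearest (0.34, 95% interval 0.13 to 0.56, adjusted p = 0.0529).

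In NSCs 2 listed genes were called higher and none lower (2.54% and 3.48% of all tested genes), and 6 were called higher without WT NSC replicate 1. That library stood apart from the other WT NSC libraries in Hes5, at 15.3 against 157 and 81.6 FPKM, and in Nes, at 267 against 97.5 and 115 FPKM. Inhbb, which encodes a subunit of activin B, was at 11.4, 17.0 and 18.4 FPKM in KO and 3.42, 9.30 and 8.19 FPKM in WT libraries (1.12, SE 0.24, adjusted p = 0.00605). Gsc, a homeobox target of the pathway, was at 1.08, 2.12 and 1.84 FPKM in KO libraries and listed at 0 in all WT libraries (adjusted p = 2.78e-04).

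**Figure D5:**
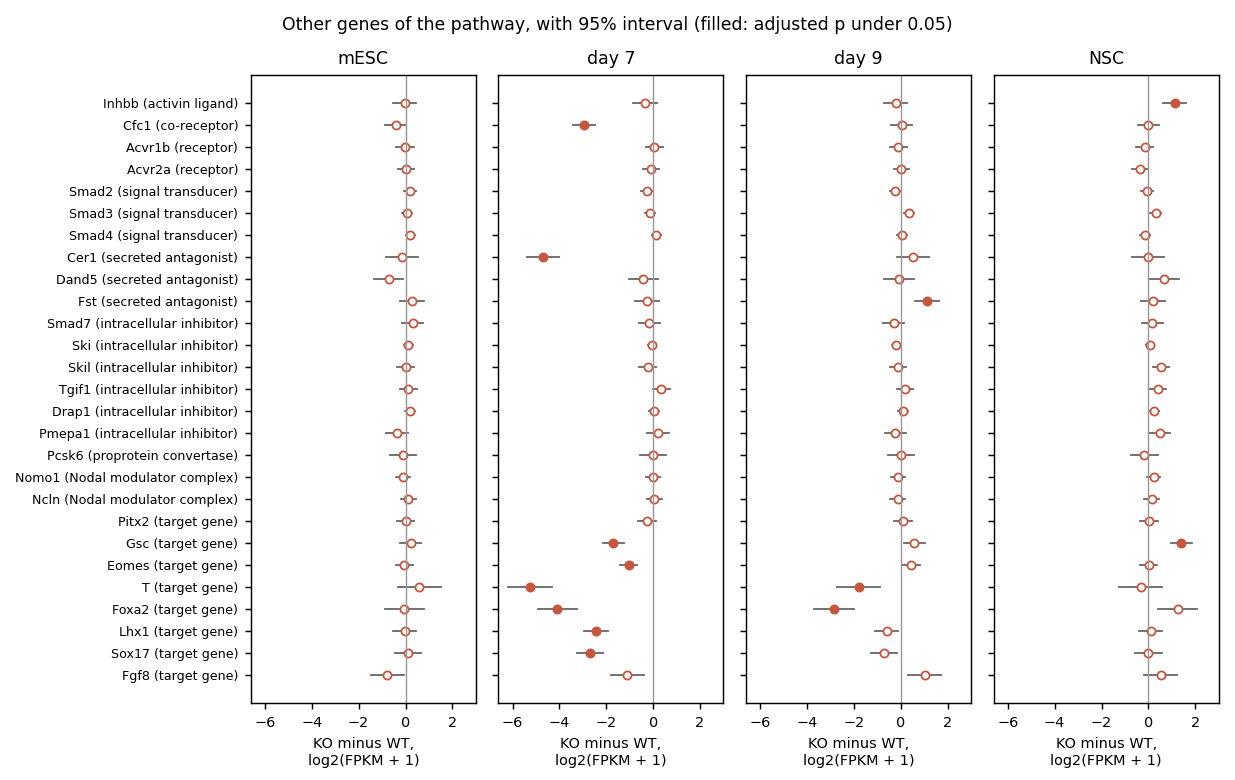
Difference between KO and WT, on the log2(FPKM + 1) scale, for 27 other genes of the pathway at each stage, with 95% intervals from the limma fit (3 libraries per group) and filled points where the adjusted p was under 0.05. At day 7 the 8 filled points all lie below 0, and at day 9 Fst lies above 0 while T and Foxa2 lie below.

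The pattern of Nodal over the 24 libraries was compared with that of every tested gene by the Pearson correlation of log2(FPKM + 1), as a description, since libraries of a group share their stage and all values share the library scaling. The genes most like it were L1td1 (r = 0.997), Dppa4 (0.991), Hsd17b14 (0.991), Gatsl3 (0.990) and Fgfbp1 (0.990). L1td1 fell from 133 ± 46.0 FPKM in WT mESCs to 28.3 ± 8.37 at day 7, 3.64 ± 0.238 at day 9 and 0.0217 ± 0.0376 in NSCs. At day 9 the KO mean was above the WT mean for L1td1 (6.10 ± 2.05 FPKM), Dppa4 (8.10 ± 2.51 against 4.68 ± 1.32) and Gatsl3 (6.62 ± 2.13 against 4.12 ± 0.0807) and below it for Hsd17b14 (2.05 ± 0.792 against 2.26 ± 0.268) and Fgfbp1 (2.60 ± 0.513 against 2.98 ± 0.397). Among the members, r with Nodal was 0.990 for Lefty2, 0.987 for Tdgf1, 0.970 for Gdf3, 0.965 for Lefty1, 0.860 for Foxh1, 0.630 for Furin, 0.411 for Acvr2b and -0.792 for Gdf1. In that order they ranked 7, 10, 104, 151, 1600, 3434, 4455 and 10167 among the 12105 tested genes, with Nodal itself as 1. Many genes outside the pathway thus had a higher r than most members.

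Once the group means were taken out, the 18 libraries outside NSCs showed how members varied together between replicates. The correlation of deviations with those of Nodal was 0.78 for Gdf3, 0.74 for Tdgf1, 0.57 for Foxh1, 0.51 for Lefty2 and 0.38 for Lefty1, and it was 0.15 for Acvr2b, -0.05 for Furin and -0.25 for Gdf1. Lefty1 and Lefty2 varied together at 0.64, although their levels moved differently between mESCs and day 7.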

How the data were processed

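RNA-seq libraries (Illumina Stranded mRNA Prep, 80-base single-end reads, per the study's methods) were trimmed by the authors with Trim Galore 0.6.6 and aligned to mm9 with TopHat2 2.1.1. The authors removed ribosomal and X-chromosome reads and deposited FPKM values per gene from Cuffdiff, on which everything here rests. How Cuffdiff scaled libraries and treated strand is not given in the sources used here. The 12 FPKM columns of other samples were not used. Read counts were not used here. From the steps of low values, 96.7% of which were whole multiples of 1 read within 5%, relative depth was estimated.

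Genes on X or Y, without a value above 0 or with a failed estimate were left out, and 12105 genes with a mean of at least 1 FPKM were tested. log2(FPKM + 1) was fitted with limma 3.58.1 (R 4.3.3) on 8 groups over all 24 libraries, with trend and robust empirical Bayes, two-sided. Fold changes on this scale understate those of low genes. The study describes the replicates as biological, and as independent experiments for mESCs and their intermediates, so p-values measure the spread between such samples of 1 line per genotype. Replicate numbers paired WT with KO libraries in mESCs (correlations of deviations 0.14 to 0.44) and NSCs (0.18 to 0.34) and not at day 7 (0.04 to 0.10) or day 9 (-0.11 to 0.03). Named genes were Smchd1, the 9 members and, of the wider list, the called genes, at most 3 rising and 3 falling per comparison. Some others were named to complete a count. Members and lists were chosen with earlier results of these data known. Motifs were searched in the mm9 genome. Alternatives were another pseudocount, no filter, another scaling, separate fits, a replicate block and leaving out each library.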

Additional observations from a re-analysis of the deposited data

Results flagged for a closer look

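In 4 cases the KO minus WT difference of a member itself differed between stages by an interaction contrast in limma, on the log2(FPKM + 1) scale. For Furin, the convertase, the difference was lower at day 7 than in mESCs by -0.81 (adjusted p = 0.0194), from 0.37 in mESCs to -0.44 at day 7. The other 3 were higher at day 9 than at day 7, at 1.63 for Lefty2 (adjusted p = 0.00145), 1.27 for Lefty1 (adjusted p = 0.0182) and 1.22 for Tdgf1 (adjusted p = 0.0486). The separate differences at day 7 and day 9 were -0.45 and 1.17 for Lefty2, -0.40 and 0.87 for Lefty1 and -0.51 and 0.70 for Tdgf1. The day 9 against day 7 contrast was chosen after the data had been seen, and the call of Tdgf1 was lost in 9 of the 12 fits that left out 1 library. That of Lefty1 was lost in 4 of 12, with a pseudocount of 0.1 (adjusted p = 0.442) and in a fit of the compared groups alone (adjusted p = 0.0554), and that of Furin in 4 of 12 and when libraries were scaled to the same sum (adjusted p = 0.0730). The call of Lefty2 was not lost in any alternative run.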

How the results depend on the processing

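Counts of called members are of 9. The replicate block moved the count between KO and WT from 0 to 1 at day 7 (Furin), from 3 to 6 at day 9 and, in NSCs, from 1 to 2, that of the day 9 against mESC difference from 0 to 2 (Lefty1 and Tdgf1) and that of the day 9 against day 7 difference from 3 to 5, and it changed no other call. A pseudocount of 0.1 gave 2 at day 9 (Lefty1 and Foxh1 lost, Gdf3 gained), 2 in NSCs and 1 for day 9 against day 7. Fits of the compared groups alone gave 0 in NSCs and 1 for day 9 against day 7. Scaling to the same sum gave 0 for day 7 against mESCs and 2 for day 9 against day 7 (Tdgf1 lost, adjusted p = 0.0929), and ended the Furin call between KO mESCs and KO NSCs (-0.22, adjusted p = 0.213). Leaving out single libraries gave 1 to 5 at day 9, 1 to 2 in NSCs, 0 to 1 for day 7 against mESCs and 1 to 5 for day 9 against day 7.

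Signs turned only for differences that were not called. In KO minus WT, leaving out single libraries gave -0.17 to 0.09 for Nodal, -0.03 to 0.24 for Lefty1 and -0.07 to 0.30 for Gdf3 in mESCs, -0.13 to 0.06 for Furin at day 9, and -0.05 to 0.06 for Tdgf1 and -0.52 to 0.21 for Gdf1 in NSCs. Lefty1 between WT mESCs and day 7 ran from -0.28 to 0.04, and was 0.11 with libraries scaled to the same sum. For day 7 against mESCs the KO effect ran from -0.49 to 0.04 for Tdgf1 and from -0.02 to 0.28 for Acvr2b, for NSCs against mESCs from -0.09 to 0.17 for Nodal and from -0.30 to 0.07 for Gdf3, and for day 9 against day 7 from -0.05 to 0.38 for Gdf1. The cause of these changes was not tested. The FPKM table limits the precision of low genes, since it holds no counts.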
